A study of Vigna unguiculata with 30 samples.

Results

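The gene models described here lie on unplaced contigs of the cowpea genome. They are the models whose sequence name begins with contig_ (identifiers VigunL) and whose raw counts summed to at least 100 over the 30 libraries of the series. There were 280 such models among 31948 in the count table. Contigs carried 1480 models in all: 561 had no count in any library, and the 639 with a count under the threshold held 1.35% of the counts on contigs.

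Cowpea (Vigna unguiculata) is a grain legume, here the line IT97K-499-35 grown in greenhouse ground with added light. Leaf RNA came from 6 groups of 5 libraries each, namely the top, middle and bottom of the canopy at stage R3 (6.5 weeks from planting) and the same positions at stage R1 (5.5 weeks). No group carried a treatment, mutation or transgene. The labels call the replicates biological without stating that each came from its own plant, so the p-values measure the variation between these samples.

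A contig is a stretch of assembled sequence. It stays unplaced when it cannot be assigned to a chromosome, which often happens to repeated DNA such as ribosomal RNA gene arrays, satellites, transposable elements and copies of organelle DNA. Gene models predicted there are often short, some are fragments, and near-identical copies can share sequencing reads, so that the count of one copy may hold reads of another. Upper leaves of a legume canopy are in general younger and better lit than lower leaves. The files pair none of the identifiers with a gene name or product, and 0 of the 280 matched the RefSeq table of the species, so each model is described by its contig, exons, length and counts.

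Library totals ranged from 10.5 to 17.4 M counts with a median of 12.7 M. Levels are given as CPM, counts per 1e6 of the library size after TMM scaling, a correction for differences in composition. The scaling factors ran from 0.839 to 0.939 in Top R3 libraries and 0.959 to 1.17 in Bottom R3 libraries, and from 0.88 to 1.10 in Top R1 libraries and 1.05 to 1.23 in Bottom R1 libraries. Because the libraries hold bulk RNA, fewer cells of a type and less RNA per cell cannot be told apart.

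The 280 members lay on 80 of the 223 contigs that carry a model, and 49 contigs had 1 member only. Contig_3 stood out with 73 members out of 260 models, and its members took 38.5% of all member counts. Contig_14 and contig_543 followed with 12 members each, taking 3.19% and 0.379%. Most members were short and simple. A total of 156 had 1 exon, 68 had 2 or 3, 45 had 4 to 9 and 11 had 10 or more. Their length had a median of 651 bases over all 280, tested or not, against 1959 bases for tested models on chromosomes. A multiple of 3 was found in 77.5% of the lengths, against 43.2% on chromosomes.

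The shortest member was VigunL035900 on contig_3 with 111 bases, and the longest was VigunL020800 on contig_292 with 5835 bases in 4 exons (bases 3236 to 10528). The most exons, 20, belonged to VigunL060800 on contig_481. VigunL084500 on contig_674 had the most exon entries, 82, which overlap one another and merge into 11 blocks of 1980 bases. Exons of 7 members overlapped those of another model, 6 of them on the opposite strand. Not stated by the files or labels at hand are the genome build of these coordinates, the strand setting of the counting and the treatment of reads that fit several places.

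Members were mostly weakly expressed. Their mean level over 30 libraries had a median of 1.05 CPM, against 15.7 CPM for all genes tested, and per length it was 2.09 CPM per kb against 7.98 CPM per kb. The member medians include 59 members that failed the filter on low counts, which every gene tested had passed. Of the members, 142 averaged at least 1 CPM, 34 at least 10 CPM and 3 at least 100 CPM. The 3 leading members, VigunL029000, VigunL043000 and VigunL059434, held 35.1% of all member counts. At the threshold, the nearest models inside were VigunL009801 with a summed count of 100 and VigunL075200 and VigunL059827 with 101 each. The nearest outside were VigunL010966 with 99, VigunL068400 with 98 and VigunL007001 with 97.

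A block of 5 neighbouring 1-exon models recurred on the contigs. In the direction of its first model the block held models of 123, 204, 162, 264 and 168 bases, separated by gaps of 42, 155, 38 and 136 bases. The 204-base and 162-base models lay on the opposite strand to the other three. In all, 18 instances with at least 2 of the models at exactly these distances were found, and 2 instances were complete. Of the 18, 16 were spread over contig_14, contig_134, contig_239, contig_243, contig_289, contig_302 and contig_598, and 2 lay on chromosome Vu02. The 18 instances set which models count as block models below. These instances comprised 53 models, 21 of which are members.

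Counts in the block were uneven along it. The 28 models on the strand of the 123-base model had 116607 counts in all, and the 25 on the opposite strand had 1382, a ratio of 84.4. The 10 copies of the 123-base model in these instances ranged from 1 to 30220 counts, with 3 copies carrying most of them: VigunL059941 (contig_302, bases 37126 to 37248, minus strand) with 30220, VigunL059526 (contig_239, bases 14700 to 14822, plus strand) with 27845 and VigunL060537 (contig_289, bases 20180 to 20302, minus strand) with 24721. Further 1-exon models of 123 bases filled no exact position and are left out of the block's counts and sums. They include VigunL007401 (contig_14, 8039 counts) and VigunL059926 (contig_239, 6943 counts). The latter begins at base 24134, ahead of the 264-base block member VigunL060026 at base 24857 on the same strand. The 12 copies of the 204-base model had 0 to 309 counts with a median of 2.5. Next to VigunL059941, the member VigunL059641 (431 bases, 31982 counts) covers bases 696 to 1126 after the start of the 123-base model, which is where the 264-base model lies in other instances. No sequence was at hand, so how far the copies differ in their bases, and how the counting divided reads among them, was not tested.

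**Figure D1:**
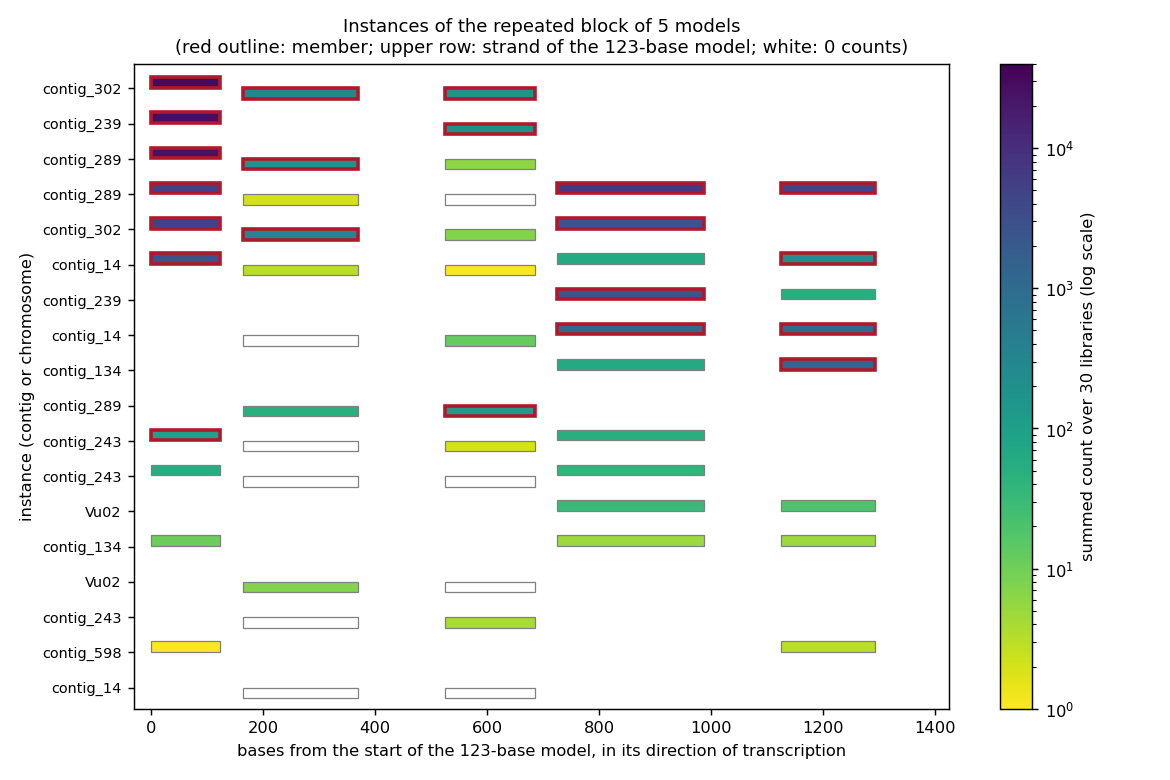
Instances of the repeated block, one per row, with the contig or chromosome named at the left. Boxes stand for models at their distance in bases from the start of the 123-base model, coloured by summed count over 30 libraries on a log scale. The darkest boxes are 3 copies of the 123-base model with 24721 to 30220 counts, and models on the opposite strand, drawn lower, stay at or below 309.

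More widely, 65 members (23.2%) belonged to 38 families of models that share exon lengths, spacing and orientation with a neighbouring pair elsewhere, within 20000 bases. These families counted 146 copies, 81 of them under the threshold, and 12 families had a copy on a chromosome. In 19 families 1 copy held at least 90% of the counts. Members in families held 19.0% of all member counts.

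Models with the same exon lengths in order, with at least 2 exons, formed 22 sets with 29 members, and 14 sets held a chromosome model. The 4 sets with the most counts were of different kinds. VigunL059750 on contig_478 (3 exons, 276 bases) had 13326 counts while its 9 twins had 0 to 92. VigunL059180 on contig_54 (2 exons, 237 bases) had 523 against 10482 in its twin Vigun04g139300 on Vu04. VigunL032601 on contig_3 (5 exons, 624 bases) had 2912 against 545 in Vigun01g239825 on Vu01. VigunL059243 on contig_313 and VigunL085366 on contig_681 (2 exons, 183 bases) had 1355 and 784.

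The canopy comparison asks where in the canopy these models are expressed. More members were called higher in top than in bottom leaves than were called lower, at both stages. Differences were tested with edgeR's quasi-likelihood test over all 20284 genes that passed the filter on low counts, with calls made where the p adjusted by Benjamini-Hochberg was under 0.05. Of the members, 221 passed the filter. The other 59 had summed counts of 100 to 224 and were not tested. A member could pass the filter through one group alone, so the counts below describe the 221 and not the 280.

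At R3, 112 of the 221 were higher in top than in bottom leaves and 5 were lower, where 26.1% and 25.8% of all genes tested were higher and lower (51.9% called). At R1, 87 were higher and 0 were lower, where the background was 22.2% and 20.8% (43.0% called). At R1, 2 members were lower at an unadjusted p under 0.05, and DESeq2 called 0 lower. The median log2 fold change of members was 0.96 at R3 and 0.61 at R1, against -0.02 and 0.01 over all genes tested. A total of 76 members were higher at both stages, a pattern shown by 17.7% of all genes tested. With counts scaled by library size alone, which shifts the median of all genes by -0.31 at R3 and -0.15 at R1, 90 were higher and 15 lower at R3, and 81 higher and 2 lower at R1.

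**Figure D2:**
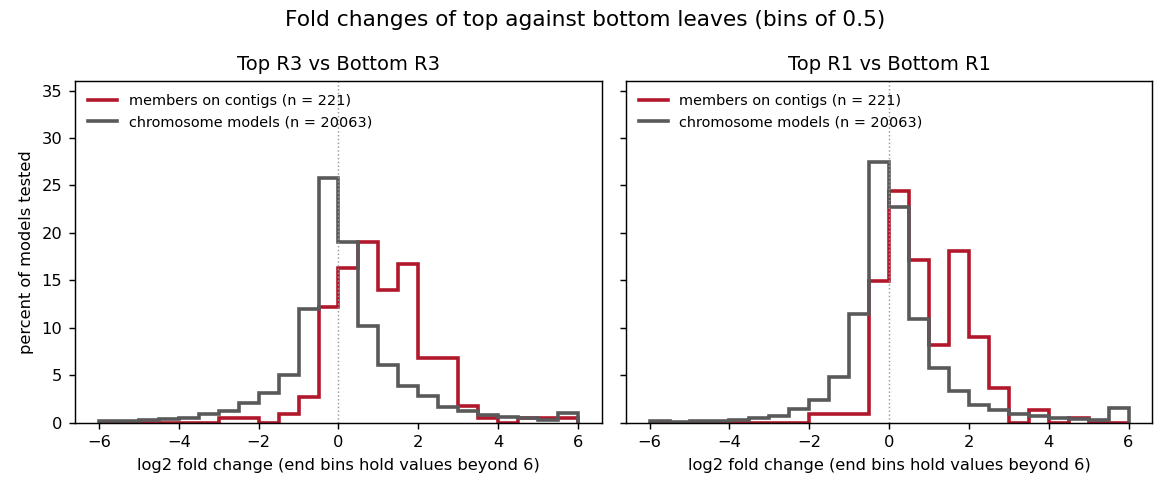
Distribution of the log2 fold change (horizontal axis) of 221 tested members and 20063 tested chromosome models, as percent of each set in bins of 0.5, for Top R3 versus Bottom R3 and Top R1 versus Bottom R1. Chromosome models centre on 0, while the members' median lies at 0.96 at R3 and 0.61 at R1.

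Among exon classes, the share called higher in top leaves was highest in members with 1 exon. At R3, 84 of 131 tested 1-exon members (64.1%) were higher in top leaves, against 23.3% of 2544 tested 1-exon models on chromosomes. At R1 the shares were 50.4% (66 of 131) and 19.9%. Members with 2 or 3 exons were called higher at rates near those of chromosome models, with 29.2% against 25.5% at R3 and 22.9% against 21.9% at R1. Those with 4 to 9 exons gave 30.3% against 27.4% at R3 and 21.2% against 22.9% at R1, and the 9 tested with 10 or more gave 44.4% against 24.8% and 33.3% against 21.7%. Lower calls were rarer than on chromosomes in every exon class. At R3 they were 1.53% against 27.2% with 1 exon and 2.08% against 25.5% with 2 or 3. With 4 to 9 exons they were 3.03% against 25.7%, and with 10 or more 11.1% against 26.8%. At R1 they were 0% of members in each class, against 20.8%, 21.8%, 21.4% and 19.7%. Among members of at most 300 bases, 35 of 57 (61.4%) were higher at R3, against 17.2% of chromosome models of that length, and 32 of 57 (56.1%) at R1, against 15.1%. The members' share was also above that of chromosome models in the longer classes. At R3 it was 47.3% against 24.4% above 300 and up to 1000 bases, 47.7% against 28.5% above 1000 and up to 2000, and 44.8% against 24.3% above 2000, and at R1 it was 35.2% against 19.1%, 31.8% against 23.9% and 31.0% against 21.3%. These shares are descriptions without a test, since copies of one model are not independent of each other.

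**Figure D3:**
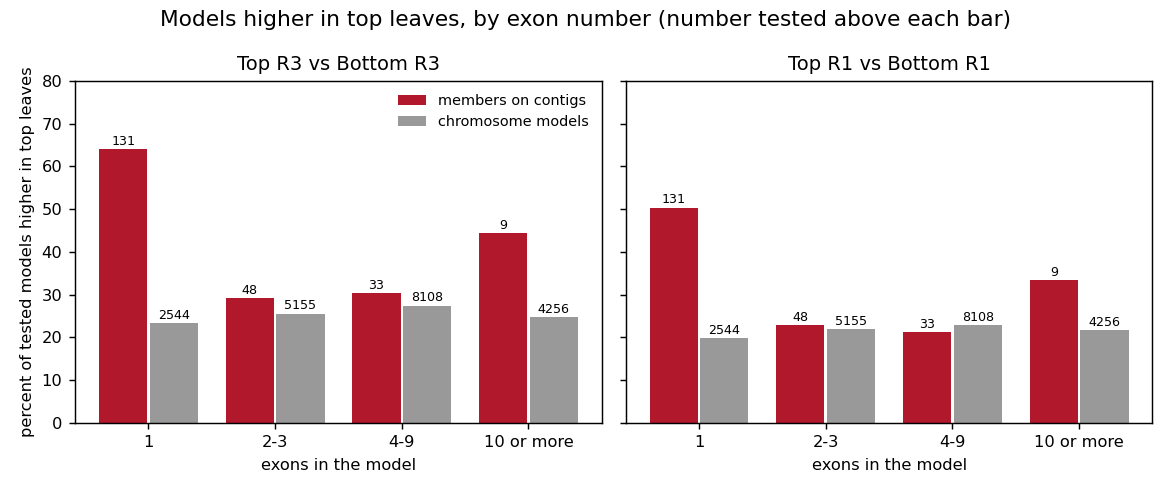
Percent of tested models higher in top than in bottom leaves by number of exons, for members on contigs and chromosome models at R3 and R1, with the number tested above each bar. The 1-exon members reach 64.1% and 50.4%, against 23.3% and 19.9% of 1-exon chromosome models.

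Abundant members differed in their patterns across the groups, also within contig_3. VigunL059434 (contig_276, bases 24983 to 25718, 1 exon, 736 bases) had 146, 560, 534, 73.2 and 304 CPM in Top R3 leaves, 142, 76.2, 68.5, 46.3 and 296 CPM in Middle R3 leaves and 148, 81.7, 111, 63.4 and 77.3 CPM in Bottom R3 leaves. It had 443, 593, 483, 424 and 399 CPM in Top R1 leaves, 367, 385, 305, 402 and 332 CPM in Middle R1 leaves and 232, 174, 138, 154 and 130 CPM in Bottom R1 leaves. Top R1 libraries all lay above Bottom R1 libraries, whereas at R3 the top libraries spread widely, with replicates 1 and 4 inside the range of the bottom libraries. The log2 fold change of top versus bottom was 1.75 at R3 (SE 0.44, adjusted p = 0.0018 with edgeR) and 1.50 at R1 (SE 0.43, adjusted p = 0.0073 with edgeR).

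The 123-base model VigunL059941 of the repeated block followed the same course. It had 48.4, 188, 171, 25.2 and 95.2 CPM in Top R3 leaves, 50.4, 26.6, 22.5, 16.5 and 105 CPM in Middle R3 leaves and 47.4, 33.6, 31.5, 18.9 and 26.6 CPM in Bottom R3 leaves. It had 130, 184, 133, 139 and 147 CPM in Top R1 leaves, 136, 120, 84.3, 135 and 108 CPM in Middle R1 leaves and 71.2, 48.1, 44.1, 50.2 and 35.1 CPM in Bottom R1 leaves. The Top R3 replicates 1 and 4 were again the low ones and Middle R3 replicate 5 again the high one. Its log2 fold change of top versus bottom was 1.74 at R3 (SE 0.44, adjusted p = 0.0020 with edgeR) and 1.56 at R1 (SE 0.44, adjusted p = 0.0059 with edgeR). Per length it was the most abundant member, at 670 CPM per kb over the 30 libraries, against 348 CPM per kb for VigunL059434.

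VigunL059434 and the copies on contig_239, contig_289 and contig_302 with the most counts went up and down together across libraries. Its Pearson correlation over the 30 libraries was 0.99 with VigunL059941, 0.99 with VigunL059641, 0.98 with VigunL059526, 0.98 with VigunL059426 (contig_239, 408 bases) and 0.98 with VigunL060537. These values describe libraries that share their group and their scaling, and models whose reads may overlap. Over the 19 tested of the 21 block members the correlation ran from 0.41 (VigunL009001) to 0.99. Weaker copies on the same contigs were lower, such as VigunL059741 at 0.81 and VigunL059841 at 0.84. Other abundant members lay between, and the values did not split cleanly by contig. The correlation was 0.17 with VigunL029000 and 0.52 with VigunL043000, both on contig_3, and 0.70 with VigunL085500 on contig_681.

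The most abundant member, VigunL029000 (contig_3, bases 142280 to 143682, 1 exon, 1403 bases), differed from this course. It had 279, 246, 307, 322 and 385 CPM in Top R3 leaves, 391, 483, 323, 229 and 356 CPM in Middle R3 leaves and 293, 157, 364, 140 and 146 CPM in Bottom R3 leaves. It had 212, 278, 237, 203 and 208 CPM in Top R1 leaves, 329, 345, 335, 324 and 267 CPM in Middle R1 leaves and 321, 107, 175, 310 and 203 CPM in Bottom R1 leaves. Middle leaves had the highest mean at both stages and the bottom libraries were split. Bottom R3 replicates 2, 4 and 5 and Bottom R1 replicates 2 and 3 lay below every top and middle library of their stage, and the other bottom libraries did not. None of the 9 comparisons of 2 groups called it; top versus bottom gave a log2 fold change of 0.48 at R3 (SE 0.26, adjusted p = 0.13 with edgeR) and 0.03 at R1 (SE 0.26, adjusted p = 0.94 with edgeR).

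VigunL043000 (contig_3, bases 425938 to 427534, 2 exons, 1563 bases) had 292, 304, 277, 246 and 325 CPM in Top R3 leaves, 391, 349, 250, 210 and 277 CPM in Middle R3 leaves and 194, 103, 224, 110 and 111 CPM in Bottom R3 leaves. It had 231, 361, 312, 268 and 240 CPM in Top R1 leaves, 367, 347, 347, 320 and 271 CPM in Middle R1 leaves and 199, 96.2, 133, 276 and 156 CPM in Bottom R1 leaves. Every Top R3 library lay above every Bottom R3 library, while Bottom R1 replicate 4 lay inside the range of both other R1 positions. No difference was called between top and middle leaves. The log2 fold change of top versus middle was -0.03 at R3 (adjusted p = 0.95 with edgeR) and -0.23 at R1 (adjusted p = 0.55 with edgeR). VigunL043000 rose in middle over bottom leaves at R3 (by 0.99 on the log2 scale, SE 0.24, adjusted p = 0.0040 with edgeR) and at R1 (0.94, SE 0.24, adjusted p = 0.020 with edgeR), and in top over bottom at R3 (0.96, SE 0.24, adjusted p = 0.0017 with edgeR) and at R1 (0.71, SE 0.24, adjusted p = 0.018 with edgeR). The R1 calls were lost without Bottom R1 replicate 2 (adjusted p = 0.060 for top, 0.068 for middle) or 3 (0.053 and 0.069), and that of top versus bottom also without Top R1 replicate 2 (0.057).

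VigunL007332 (contig_149, 2 exons, 1380 bases) resembled it, with a correlation of 0.95 over the 30 libraries. It averaged 93.0 ± 16.4 CPM in Top R3, 98.4 ± 27.8 in Middle R3 and 51.5 ± 20.6 in Bottom R3 leaves, and 72.0 ± 9.47 in Top R1, 97.5 ± 10.7 in Middle R1 and 56.1 ± 24.6 in Bottom R1 leaves (SD, n = 5 each). It shares 568 exon bases with VigunL007400 on the opposite strand, and reads of the pair cannot be told apart unless the counting used strand.

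**Figure D4:**
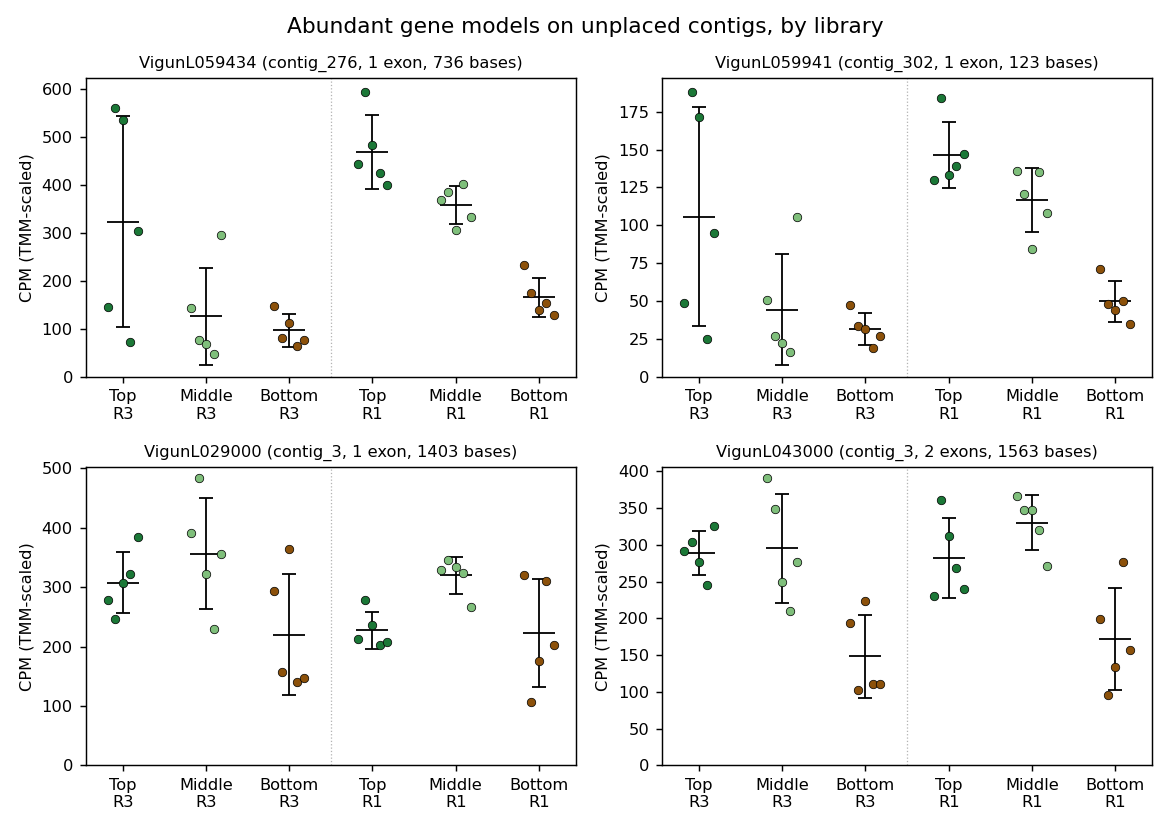
CPM of 4 abundant members in each library, by group, with points for the 5 libraries and bars for mean and SD. VigunL059434 and VigunL059941 spread widely in Top R3 leaves (73.2 to 560 and 25.2 to 188 CPM). VigunL029000 and VigunL043000 are highest on average in middle leaves, with no call between middle and top leaves.

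Summed levels of the repeated block and of contig_3 took different courses. The 21 block members summed to 423 ± 284 CPM in Top R3, 165 ± 146 in Middle R3 and 121 ± 43.4 in Bottom R3 leaves, and to 581 ± 133 in Top R1, 450 ± 61.9 in Middle R1 and 184 ± 46.7 in Bottom R1 leaves (SD, n = 5 each). Top R3 libraries ranged from 97.4 to 741 CPM, with replicates 1 and 4 at 191 and 97.4, and Middle R3 replicate 5 stood at 410 CPM while the other Middle R3 libraries had 52.8 to 184. The 73 members on contig_3 summed to 1015 ± 90.1 CPM in Top R3, 1023 ± 263 in Middle R3 and 582 ± 241 in Bottom R3 leaves, and to 855 ± 157 in Top R1, 997 ± 108 in Middle R1 and 624 ± 235 in Bottom R1 leaves (SD, n = 5 each). Here the Top R3 libraries were close together, between 938 and 1158 CPM. The contig_3 member with the most counts held 106073 of the 325079 counts on it, so these sums lean on few models. The course of the block was shared by VigunL059434 on contig_276, where no instance was found. The 186 members that lie off contig_3 and fill no position of the block include VigunL059434. They also include models inside instances, such as VigunL059641 with 31982 counts, so their sum is not separate from the block. These 186 summed to 833 and 670 CPM in Top R3 replicates 1 and 4. They had 1315 to 1752 CPM in the other Top R3 libraries. Middle R3 replicate 5 stood at 1173 CPM, against 523 to 948 in the other Middle R3 libraries.

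Of the block members, 19 were tested; 18 were higher in top than in bottom leaves at R3 and 15 at R1, with median log2 fold changes of 1.87 and 1.74. When each library was left out in turn, these counts stayed between 15 and 19 at R3 and between 15 and 16 at R1. Of the 57 contig_3 members tested, 36 were higher at R3 and 21 at R1, with medians of 1.00 and 0.61. Without 1 library these counts ran from 28 to 43 at R3 and from 14 to 24 at R1. On contig_14, 7 of 11 tested members were higher at R3 and 6 at R1. On contig_543, 2 of 8 were higher at R3, a share near the 26.1% of all genes tested, and 3 at R1, where that share was 22.2%. No member on these 3 contigs was called lower in top leaves at either stage by edgeR or DESeq2, and 1 on contig_543 was lower at R1 at an unadjusted p under 0.05.

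**Figure D5:**
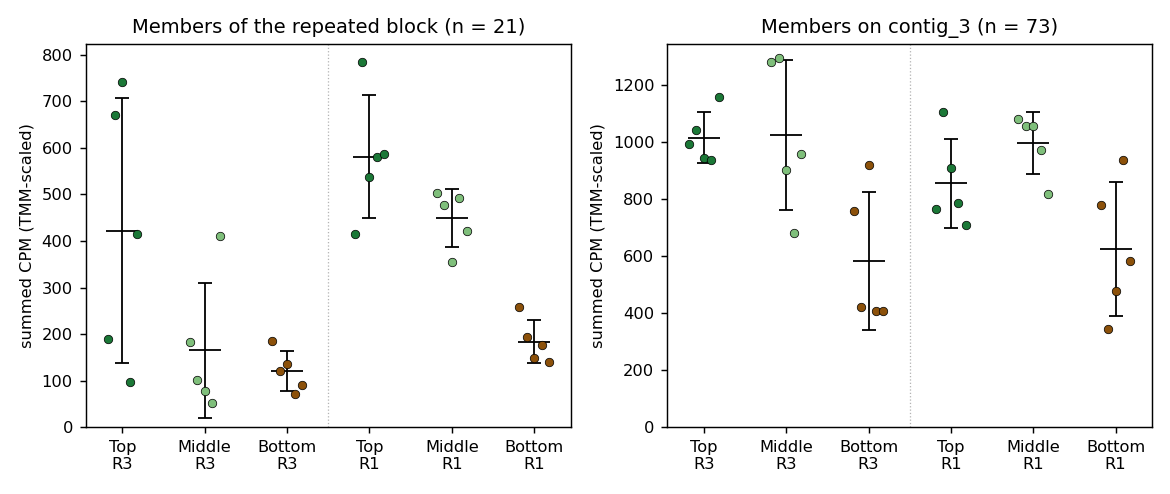
Summed CPM of the 21 members of the repeated block and of the 73 members on contig_3 in each library, with mean and SD per group. The block varies from 97.4 to 741 CPM among Top R3 libraries, whereas contig_3 stays between 938 and 1158 CPM there.

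The largest differences between top and bottom leaves among members that passed the rule for named models (called, with non-overlapping libraries and at least 1 CPM in the higher group) were in short or weakly expressed ones. At R1 these were 2 members of the block on contig_14. VigunL006101 (bases 28233 to 28355, 123 bases) had 8.79, 15.1, 22.4, 23.0 and 15.7 CPM in Top R1 leaves and 0.911, 2.73, 0.226, 1.08 and 2.00 CPM in Bottom R1 leaves. These ranges lie apart, and the log2 fold change was 3.58 (SE 0.82, adjusted p = 0.0012 with edgeR).

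VigunL009101 (bases 107343 to 107510, 168 bases) had 0.870, 1.03, 0.599, 22.4 and 21.1 CPM in Top R1 leaves and 0.580, 0.557, 0.0754, 0.231 and 0.0526 CPM in Bottom R1 leaves. Top R1 replicates 4 and 5 were far above the rest, and the other Top R1 libraries lay just above the bottom ones. Its log2 fold change was 4.93 (SE 1.38, adjusted p = 0.0057 with edgeR) from 567 counts in Top R1 and 21 in Bottom R1 leaves, and the adjusted p stayed at or below 0.018 in all 15 alternatives run for it.

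At R3 they were VigunL056901 and VigunL006900. VigunL056901 (contig_456, 2 exons, 240 bases) had 2.94, 4.51, 0.579, 1.01 and 1.59 CPM in Top R3 leaves and 0.493, 0.155, 0.382, 0.0509 and 0 CPM in Bottom R3 leaves. The ranges did not overlap and the log2 fold change was 3.30 (SE 0.70, adjusted p = 3.9e-04 with edgeR). VigunL006900 (contig_149, 1 exon, 1469 bases) had 0.511, 1.08, 4.24, 0.337 and 0.707 CPM in Top R3 leaves and 0.329, 0.207, 0.318, 0 and 0.0706 CPM in Bottom R3 leaves. The highest Bottom R3 library lay just under the lowest Top R3 library, and the log2 fold change was 2.86 (SE 0.75, adjusted p = 0.0027 with edgeR). VigunL006900 shares 437 exon bases with VigunL006800 on the opposite strand.

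The 5 members lower in top than in bottom leaves at R3 lay on 5 different contigs and outside the repeated block; they are named after their values were seen. VigunL060800 (contig_481, 20 exons, 2313 bases) had 6.64, 6.18, 8.58, 6.91 and 7.77 CPM in Top R3 leaves and 10.3, 8.58, 10.6, 10.5 and 12.6 CPM in Bottom R3 leaves, a log2 fold change of -0.54 (SE 0.14, adjusted p = 0.0018 with edgeR). VigunL048620 (contig_320, 2 exons, 1406 bases) had 7.53, 7.06, 12.9, 8.68 and 10.2 CPM in Top R3 leaves and 21.5, 16.9, 22.2, 10.2 and 13.3 CPM in Bottom R3 leaves, a log2 fold change of -0.86 (SE 0.21, adjusted p = 0.0018 with edgeR). In both the groups met or overlapped at the edges, and both calls held without any 1 library of the groups compared (highest edgeR adjusted p = 0.0083 and 0.0075).

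The other three were weaker in level. VigunL075500 (contig_544, 1 exon, 2446 bases) averaged 1.86 ± 0.553 CPM in Top R3 and 3.15 ± 0.931 CPM in Bottom R3 leaves. VigunL060600 (contig_48, 1 exon, 3339 bases) averaged 0.386 ± 0.536 CPM in Top R3 and 2.91 ± 2.58 CPM in Bottom R3 leaves, and VigunL060000 (contig_479, 4 exons, 987 bases) averaged 0.418 ± 0.523 CPM in Top R3 and 2.14 ± 2.57 CPM in Bottom R3 leaves (SD, n = 5 each). In Bottom R3 leaves, replicate 5 held 6.71 CPM of VigunL060600 and replicate 4 held 6.52 CPM of VigunL060000, each the highest of any library. Without those libraries the edgeR adjusted p was 0.058 and 0.22. The call of VigunL060000 was also lost without Top R3 replicate 1, 2 or 3 (adjusted p = 0.068, 0.060 and 0.066), and that of VigunL075500 without Top R3 replicate 2 or 3 (0.082 and 0.056) or Bottom R3 replicate 1 or 3 (0.089 and 0.059).

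Fewer members were called between middle and bottom leaves. At R3, 36 members were higher in middle than in bottom leaves and 3 lower, against a background of 12.8% and 9.75% (22.5% called); with library size alone these were 27 and 8. Contig_3 supplied 19 of the higher members at R3 and the repeated block 0, where edgeR gave 0 block members at an unadjusted p under 0.05 and DESeq2 called 0. The contig_3 count was 11 without Middle R3 replicate 1 or Bottom R3 replicate 4 or 5, and 12 without replicate 2 of either group, while the block count was 1 without Middle R3 replicate 4 or Bottom R3 replicate 3. By the rule for named models, the largest fold changes were those of neighbours on contig_3. VigunL035900 (bases 300656 to 300766) had 11.9, 13.5, 5.63, 5.28 and 6.33 CPM in Middle R3 leaves and 2.14, 1.09, 3.63, 2.49 and 1.98 CPM in Bottom R3 leaves (log2 fold change 1.91, SE 0.35, adjusted p = 4.0e-04 with edgeR). VigunL036000 (bases 301238 to 301432) had 36.8, 41.5, 22.2, 14.6 and 16.0 CPM in Middle R3 leaves and 7.32, 3.62, 11.0, 8.10 and 6.78 CPM in Bottom R3 leaves (1.83, SE 0.35, adjusted p = 5.8e-04 with edgeR). The 3 lower members, named after their values were seen, were VigunL048620, VigunL048500 (contig_320, 6 exons) and VigunL059259 (contig_448, 2 exons), with log2 fold changes of -0.70, -0.66 and -1.43. These calls were lost in 3, 8 and 7 of the 10 fits that left out 1 library, with edgeR adjusted p up to 0.068, 0.14 and 0.15. The count of 39 was 21 without Middle R3 replicate 1, 24 without Middle R3 replicate 2 or Bottom R3 replicate 5, and within 1.5 times of 39 without any other library of these groups.

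At R1, 42 members were higher in middle than in bottom leaves and 0 lower, against 4.99% and 2.79% of all genes tested (7.78% called); 17 of these lay on contig_3. At an unadjusted p under 0.05 edgeR had 6 lower, and DESeq2 called 1. This count changed with single libraries. It was 6, 10, 27 and 26 without Bottom R1 replicates 3, 2, 1 and 5, and 22, 16, 26 and 23 without Middle R1 replicates 1, 2, 3 and 4. The contig_3 part of it was 3, 2 and 11 without Bottom R1 replicates 2, 3 and 5, and 10, 7 and 11 without Middle R1 replicates 1, 2 and 3. By the rule for named models, the largest fold changes were in VigunL006101, at 21.7, 11.1, 11.8, 4.29 and 8.36 CPM in Middle R1 leaves (log2 fold change 3.01, SE 0.81, adjusted p = 0.025 with edgeR), and in VigunL006900, at 1.28, 1.62, 1.42, 2.30 and 1.79 CPM in Middle R1 leaves against 0, 0.248, 0.0754, 0.846 and 0.105 CPM in Bottom R1 leaves (2.70, SE 0.73, adjusted p = 0.026 with edgeR). The call of VigunL006101 was lost without Bottom R1 replicate 1 (adjusted p = 0.053) or 3 (0.078) or Middle R1 replicate 1 (0.063). That of VigunL006900 was lost without Bottom R1 replicate 1, 2 or 3 (0.052, 0.071 and 0.083) or Middle R1 replicate 2 or 4 (0.051 and 0.053).

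Between top and middle leaves few members were called. At R3, 10 members were higher in top than in middle leaves and 0 lower, against 4.79% and 1.56% of all genes tested, 6.35% in all (2 lower at an unadjusted p under 0.05 with edgeR, and 0 called with DESeq2), and at R1, 3 were higher and 1 lower, against 6.80% and 4.65%. The R3 count was 0 without Top R3 replicate 2 or Middle R3 replicate 4, 1 without Middle R3 replicate 2, 2 without Top R3 replicate 3 or Middle R3 replicate 3, 17 without Middle R3 replicate 5 and 31 without Top R3 replicate 4. The R1 count of 4 was 0 without Middle R1 replicate 3, 1 without Top R1 replicate 3 or Middle R1 replicate 1, and 2 without Top R1 replicate 1, 2 or 4 or Middle R1 replicate 4 or 5. The member lower in Top R1 leaves was VigunL010600 (contig_20, 150 bases), at 0.418 ± 0.121 CPM in Top R1 and 0.882 ± 0.298 CPM in Middle R1 leaves (SD, n = 5 each; log2 fold change -1.06, edgeR adjusted p = 0.031). It was named after its values were seen, and its call was lost without Top R1 replicate 2, 3 or 4 or Middle R1 replicate 1 or 3 (adjusted p up to 0.089).

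Over middle leaves, the members with the largest fold changes at R3 among called members with non-overlapping libraries and at least 1 CPM in the higher group were VigunL006900, at a mean of 1.38 ± 1.63 CPM in Top R3 and 0.180 ± 0.107 CPM in Middle R3 leaves (log2 fold change 2.87, SE 0.77, adjusted p = 0.029 with edgeR), and VigunL023828 on contig_3, at 1.50 ± 0.748 CPM in Top R3 and 0.483 ± 0.248 CPM in Middle R3 leaves (1.61, SE 0.49, adjusted p = 0.047 with edgeR; SD, n = 5 each). At R1 the rule gave VigunL072500 on contig_543, at 1.42 ± 0.539 CPM in Top R1 and 0.468 ± 0.127 CPM in Middle R1 leaves (1.60, SE 0.44, adjusted p = 0.021 with edgeR), and VigunL083900 on contig_665, at 1.95 ± 0.313 CPM in Top R1 and 0.810 ± 0.249 CPM in Middle R1 leaves (1.26, SE 0.41, adjusted p = 0.047 with edgeR). In each of these pairs the libraries of both groups did not overlap. VigunL083900 shares 341 exon bases with VigunL083800 on the same strand, and how the counting treated reads there is not stated. The third called higher at R1, whose libraries overlapped and which was named after its values were seen, was VigunL085600 (contig_681, 5 exons), at 1.94 ± 0.955 CPM in Top R1 and 0.658 ± 0.278 CPM in Middle R1 leaves (1.55, SE 0.44, adjusted p = 0.025 with edgeR), a call lost without Top R1 replicate 1 (0.077) or Middle R1 replicate 1, 3, 4 or 5 (0.051 to 0.062). The R3 call of VigunL006900 was lost without Top R3 replicate 2 or 3 (adjusted p = 0.080 and 0.11) or Middle R3 replicate 2, 4 or 5 (0.063, 0.091 and 0.056). That of VigunL072500 was lost without replicate 3 of either group (0.053 and 0.057). The calls of VigunL023828 and VigunL083900 were lost in 9 and 11 of 15 alternatives, with adjusted p up to 0.17 and 0.12, among them without Top R3 replicates 1 to 3 or Middle R3 replicates 2 to 5 for VigunL023828 and without any 1 library but Top R1 replicate 5 for VigunL083900.

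The stage comparison asks which models differ between R3 and R1 at a given height. In middle leaves, 1 member was higher at R3 and 14 lower, against a background of 1.06% and 1.42%. In bottom leaves 1 was higher and 5 lower, against 7.71% and 8.53%, and in top leaves 1 was higher and 1 lower, against 0.799% and 0.759%. With library size alone, bottom leaves gave 0 and 6, and top leaves 1 and 7. The 14 in middle leaves lay on 10 contigs and included 3 block members. The block count was 10 without Middle R3 replicate 5, 0 without Middle R3 replicate 3 or 4 or Middle R1 replicate 1 or 4, and 1 without Middle R3 replicate 2 or Middle R1 replicate 2 or 3. The members that were higher at R3, named after their values were seen, were VigunL075500 in middle leaves (3.27 ± 1.09 CPM in Middle R3 and 1.47 ± 0.386 CPM in Middle R1 leaves, SD, n = 5 each; log2 fold change 1.14, edgeR adjusted p = 0.034) and VigunL005901 in bottom leaves (contig_208, 3.50 ± 1.03 CPM in Bottom R3 and 2.17 ± 0.532 CPM in Bottom R1 leaves, SD, n = 5 each; 0.69, edgeR adjusted p = 0.0497). Each call was lost in 7 of the 10 fits that left out 1 library. The middle count of 15 was 27 and 25 without Middle R3 replicates 1 and 5, 4, 2 and 3 without Middle R3 replicates 2, 3 and 4, and 3, 4 and 2 without Middle R1 replicates 1, 3 and 4. The bottom count of 6 was 10, 2 and 1 without Bottom R3 replicates 2, 4 and 5, and 1 and 2 without Bottom R1 replicates 1 and 4. The top count of 2 was 8 without Top R3 replicate 2 and 0 or 1 without every other library of these groups but Top R3 replicate 3.

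In middle leaves the largest falls, by the rule for named models, were in VigunL060014 (contig_693, 333 bases) and VigunL006900. VigunL060014 had 0, 0, 0.0713, 0.208 and 0.396 CPM in Middle R3 leaves and 1.43, 2.00, 0.949, 1.27 and 1.11 CPM in Middle R1 leaves (log2 fold change -3.28, SE 0.83, adjusted p = 0.036 with edgeR), from 8 counts in Middle R3 and 81 in Middle R1. VigunL006900 had 0.165, 0.0855, 0.285, 0.0694 and 0.297 CPM in Middle R3 leaves, all below the Middle R1 values above (-3.17, SE 0.77, adjusted p = 0.029 with edgeR). The call of VigunL060014 was lost without Middle R1 replicates 1 to 4 or Middle R3 replicates 2 to 4 (adjusted p = 0.052 to 0.10). That of VigunL006900 was lost without Middle R1 replicates 1, 3 or 4 or Middle R3 replicates 2 to 5 (0.052 to 0.082).

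In bottom leaves VigunL053600 (contig_39, 4 exons, 5653 bases) had 7.89, 7.18, 9.87, 5.91 and 6.92 CPM in Bottom R3 leaves and 12.4, 10.8, 10.6, 10.9 and 10.1 CPM in Bottom R1 leaves. The ranges lay apart and the log2 fold change was -0.54 (SE 0.15, adjusted p = 0.020 with edgeR), lost without Bottom R1 replicate 1 (0.059) or Bottom R3 replicate 4 (0.068). The other four lower in Bottom R3 leaves, named after their values were seen, were VigunL010800 on contig_20 (8 exons; 0.391 ± 0.205 CPM in Bottom R3 and 0.974 ± 0.222 CPM in Bottom R1 leaves, SD, n = 5 each), VigunL085300 on contig_681, VigunL034600 on contig_3 and the 264-base VigunL009001 on contig_14. Their log2 fold changes were -1.30, -0.51, -1.66 and -4.23, and their calls were kept in 7, 4, 3 and 2 of the 10 fits that left out 1 library. VigunL009001 had 17.5 CPM in Bottom R1 replicate 2 and 0 to 0.385 CPM in every other bottom library, and without that replicate its log2 fold change was 0.32 with an edgeR adjusted p of 0.91. Its highest library of all was Top R3 replicate 3, at 52.9 CPM.

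In top leaves VigunL033700 (contig_3, 234 bases) had 3.64, 3.34, 5.11, 4.55 and 20.1 CPM in Top R3 leaves and 1.92, 2.44, 1.57, 1.78 and 1.52 CPM in Top R1 leaves (1.99, SE 0.43, adjusted p = 0.017 with edgeR). Without Top R3 replicate 5, its highest library, the log2 fold change was 1.17 and the adjusted p was 0.10, and without Top R1 replicate 3 or 4 the adjusted p was 0.053 and 0.056. VigunL060237 (contig_289, 978 bases) averaged 0.366 ± 0.190 CPM in Top R3 and 1.35 ± 0.247 CPM in Top R1 leaves (SD, n = 5 each; -1.88, SE 0.47, adjusted p = 0.036 with edgeR), a call that 10 of 15 alternatives ended, every left-out library of both groups but Top R3 replicate 2 among them (adjusted p up to 0.10).

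With edgeR, the difference between top and bottom leaves was not shown to differ between the stages for any member. The stage by position interaction called 0 members and 0 of all genes tested (0.0%) with edgeR, and 9 members had an unadjusted p under 0.05. DESeq2 called 1 member, and among all genes tested 318 higher and 152 lower. Without Bottom R1 replicate 2, edgeR called 244 higher and 61 lower among all genes tested, and 0 members.

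Of the 221 tested members, 136 were called in at least 1 of the 9 comparisons, where 67.0% of all genes tested were, and 85 in none. The steadiest members, by coefficient of variation over the 30 libraries, were VigunL067500 (contig_493, 2 exons, 2124 bases) with 10.3 to 17.4 CPM, VigunL006066 and VigunL009100 (contig_175, 4 and 5 exons) with 3.30 to 5.55 CPM and 6.77 to 12.2 CPM, and VigunL059406 (contig_122, 8 exons) with 5.43 to 11.2 CPM. All 4 have more than 1 exon, and their coefficients were 0.12, 0.13, 0.14 and 0.17. The longest member, VigunL020800, also stayed within 0.763 to 2.08 CPM, and VigunL084500 with its 82 exon entries ran from 0 to 2.23 CPM with the highest mean in Bottom R3 leaves (1.38 ± 0.626 CPM, SD, n = 5).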

How the data were processed

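Leaf polyA RNA of 30 cowpea libraries was sequenced. The authors deposited raw counts per gene model with exon positions, strand and length; the tools named per the submitters' processing notes are HISAT2, featureCounts and DESeq2, with neither version nor role. Not given in the sources used here: build, strand setting and treatment of multiply mapped reads. The deposited counts were used unchanged, and 0 value columns lacked a sample. Models were kept by filterByExpr by group (20284), scaled by TMM and fitted with edgeR 4.0.16 quasi-likelihood (R 4.3.3, 6 groups in 1 fit, 24 residual degrees of freedom). The fit was tested on simulated data. Comparisons were 9 pairs of groups and 1 interaction, with Benjamini-Hochberg adjustment over all genes tested at 0.05. Each standard error (SE) was obtained by dividing the absolute log2 fold change by the square root of F. Exon numbers are merged blocks.

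Members and lists were chosen with earlier results of these data known. Named models are the 8 most abundant; in each comparison up to 2 with the largest rise and 2 with the largest fall among called members with non-overlapping libraries and at least 1 CPM in the higher group; the 4 steadiest; extremes of length and exon number; those at the threshold; and the 4 leading twin sets. Others are said to be named after their values were seen.

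Alternatives were DESeq2 size factors, library size alone, no filter, DESeq2 1.42.0, the replicate number as a block, and leaving out each library in turn. Same-numbered libraries deviated together in every pair, by the rule of a correlation over 0.1, only for Middle R1 and Bottom R1 (0.19 to 0.52); the labels give no source of the pairing. With 1 count worth 0.0509 to 0.0989 CPM, levels below that are not detectable.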

Additional observations from a re-analysis of the deposited data

Results flagged for a closer look

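In 150 groups of 5 libraries examined for the named members, 12 had a highest or lowest library whose gap to the next exceeded Dixon's 95% critical value for 5 samples; chance alone gives about 1 in 20. Of these, 3 were in Top R3 leaves: VigunL033700 with 20.1 CPM in replicate 5, VigunL006900 with 4.24 CPM in replicate 3 and VigunL059406 with 11.2 CPM in replicate 5. In Middle R3 leaves replicate 5 was highest for VigunL009101 at 0.89 CPM and VigunL006101 at 5.24 CPM. In Bottom R3 leaves, replicate 1 was highest for VigunL006101 at 4.03 CPM and lowest for VigunL059406 at 5.43 CPM, and replicate 3 was highest for VigunL033700 at 3.89 CPM. In Top R1 leaves, replicate 2 was highest for VigunL056901 at 3.2 CPM and replicate 4 for VigunL060237 at 1.78 CPM. In Middle R1 leaves, replicate 5 was highest for VigunL009101 at 18.8 CPM and lowest for VigunL029000 at 267 CPM.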

How the results depend on the processing

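The counts of members called in top versus bottom leaves stayed within 1.5 times the reported ones in every alternative run, with 74 to 90 at R1 and 99 to 122 at R3 when 1 library was left out, and 92 and 129 called with no filter and all 280 members tested. Of 160 alternatives of call counts, 101 were within 1.5 times and 59 were not. With no filter beyond 1 count, 6 members were called in Top R3 versus Middle R3, 3 in Bottom R3 versus R1, 6 in Middle R3 versus R1 and 1 in Top R3 versus R1. DESeq2 called 31, 14, 43 and 8 in the same order, and 1 for the interaction. Library size alone called 8 in Top R3 versus R1. The cause was not tested. Leaving out 1 library gave 6 to 50 in Middle versus Bottom at R1 and 21 to 50 at R3, 0 to 5 in Top versus Middle at R1 and 0 to 31 at R3, and for R3 versus R1 1 to 10 in bottom, 2 to 27 in middle and 0 to 8 in top leaves. The replicate block called 38 in Middle R1 versus Bottom R1, against 42 without it. In Top R3 versus Middle R3 it called 3, against 10 without it. Deviations of same-numbered libraries in those 2 groups correlated at -0.04 to 0.43, and the labels do not say whether the number pairs them. The replicate block moved no other count by over 1.5 times. Of 1335 alternatives of log2 fold changes, 1207 kept their direction and side of the threshold, 91 lost the call, 37 gained one and 0 changed the sign of a called value. Depth limits the weak members: 59 of 280 were not tested.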
